A study of Mus musculus with 22 samples.

Results

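Sgip1 was followed through every probeset that the array's annotation assigns to Sgip1 and to no other gene. These were 152 of the 1190406 probesets with values, and of the 309786 probesets with 1 gene symbol. The gene was chosen with its strain differences in these data known, so the strain values below are a description and carry no test. The samples were whole brains of naive adult male mice of 2 inbred strains, 10 of C57BL/6J (B6) and 12 of DBA/2J (D2), with 1 mouse on each Affymetrix Mouse Exon 1.0 ST array and no treatment. The series asks which transcripts are spliced differently in the brains of these strains. An exon array carries short probesets along each gene, and each value is a log2 intensity, so a difference of 1 is a doubling of the signal.

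Sgip1 encodes a neuronal endocytic protein named for its binding to endophilin. It belongs to the muniscins, which bind membrane phospholipids and the clathrin adaptor AP-2 at sites where coated vesicles start to form. In the brain the protein is also known to bind the cannabinoid receptor CB1 and to slow its internalisation, and the gene is known for a role in energy balance. It is transcribed into several isoforms, and the RefSeq gene table (GRCm38.p6) lists 5 curated transcripts.

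The probesets could be counted by symbol but not placed along the gene, since no probe positions or sequences were used here. Sgip1 ranked 4 among 22276 symbols by number of probesets, behind Ttn with 361, Neb with 167 and Syne1 with 163, while the median symbol had 11. Ttn, Neb and Syne1 encode giant proteins. The other muniscin genes, Fcho1 and Fcho2, had 30 probesets each. The RefSeq table gives "gag" as a synonym of Sgip1 and of no other gene, and gag is also the textbook name of the core protein gene of retroviruses and endogenous retroviruses. Whether each of the 152 probesets lies in an Sgip1 exon was not tested, and they are called probesets annotated as Sgip1.

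Signal from these probesets was high in the brain. A filter kept probesets whose mean over all arrays reached 1.44, the median of all probesets, and 149 of the 152 passed. The median level of the 149 was 8.80, against 3.46 for all kept probesets. Single levels ran from below 0 to 10.29, and 39 probesets lay at 10 or more. A further 59 lay from 8 to under 10. The brightest were 4806830, at a mean of 10.29, and 4530950 and 5208774, both at 10.27. The dimmest were 5569220 at -0.00, 4589961 at 1.05 and 4670802 at 1.09, and these were the 3 not kept. The spread among mice was small: the median SD was 0.19 in B6 (n = 10) and 0.17 in D2 (n = 12). Over all kept probesets it was 0.41 and 0.43, but these were dimmer and the comparison was not matched for level. Levels of different probesets also reflect probe affinity and length, so they are not amounts of RNA.

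The gene value, the median of the kept probesets on an array, was slightly higher in D2. Since the place of the probesets was not tested, this value and the index taken against it describe the probesets annotated as Sgip1 and may not give the level of Sgip1 RNA. In B6 it was 8.42 at its lowest, 8.69 at its median and 8.88 at its highest, and in D2 it was 8.69, 8.91 and 9.02. Most D2 mice lay above most B6 mice, but the strains overlapped. The means were 8.69 ± 0.12 (SD, n = 10) and 8.88 ± 0.11 (SD, n = 12), a difference of 0.19 with a standard error of 0.065, or 1.14-fold. With the mean over probesets in place of the median the difference was 0.21 with a standard error of 0.047. With the gene values of each array centred on their own median it was 0.29 with a standard error of 0.082. B6 replicate 3 was the lowest mouse and D2 replicate 13 the highest.

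Below the gene level the probesets parted. A level was called at a Benjamini-Hochberg adjusted p under 0.05 in limma fits over all kept probesets, and a gene likewise over 15951 genes. Of the 149, 27 were called higher in D2 by level, where 1.67% of all kept probesets were, and 6 were called lower, where 2.24% were. The splicing index, a probeset's value minus the gene value on the same array, was called higher in D2 for 22 probesets (0.894% of the 236254 indexed probesets were) and lower for 10 (0.772% were). An index call needed an adjusted p under 0.05 and a difference of at least 0.5. As single arrays were left out the higher calls stayed at 22 in number, and the lower calls were 8 to 16, the 16 without D2 replicate 14. By range, in 19 probesets the lowest D2 mouse lay above the highest B6 mouse, against 0.297% of all kept probesets, and in 0 did the lowest B6 mouse lie above the highest D2 mouse, against 0.473%. Because the gene was chosen on this contrast, nothing is read from these shares. For the same reason strain calls on single Sgip1-annotated probesets, here and below, only describe which values passed the fixed thresholds. They are not test results.

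The differences fell into a compact upper group and a wide lower range. Level differences of 1 or more, from 1.05 to 1.38, were found in 21 probesets, and the next highest was 0.81. At the other end no difference passed -0.61. Over all 149 the median difference was 0.11, with 109 above 0 and 40 below. The plot of D2 means against B6 means shows the high group standing off the diagonal.

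**Figure D1:**
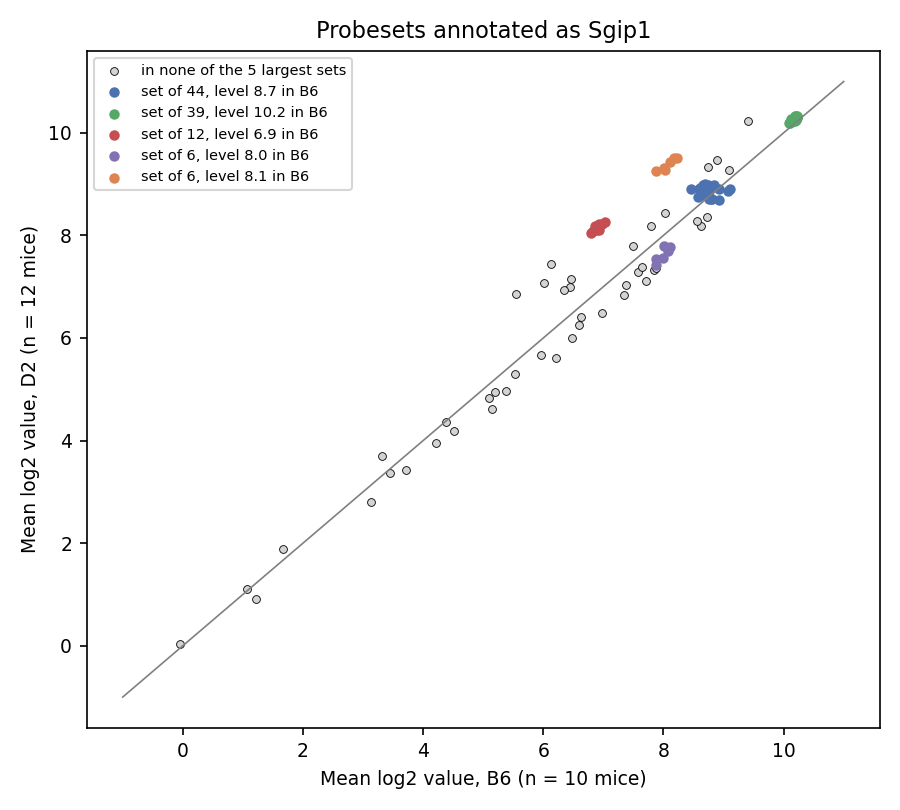
Mean log2 value of each of the 152 probesets annotated as Sgip1 in B6 (x axis, n = 10 mice) and in D2 (y axis, n = 12 mice), with the line of equal values and the 5 largest sets of alike probesets in colour. The set of 12 and the set of 6 that are higher in D2 stand more than 1 above the line, while the sets of 44 and 39 lie close to it.

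The probesets were then grouped by likeness of their values on the 22 arrays. Probesets were joined, by average linkage, up to a root-mean-square difference of 0.4 in log2 value. The 152 formed 38 sets. The 5 sets with at least 5 members held 107 probesets, 6 sets had 2 to 4 members, and 27 probesets stood alone. These sets were chosen on the values, so they are described without a test.

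The largest set held 44 probesets and sat at the level of the gene value. Its mean was 8.50 at its lowest, 8.74 at its median and 8.95 at its highest in B6, and 8.69, 8.92 and 9.03 in D2. The strains overlapped over most of that range. The difference of the means was 0.15, and single members differed by -0.23 to 0.44. None of the 44 was called by level or by index. The gene value is the median of the kept probesets, and this large set lies around that median. Its closeness to the gene value and its lack of index calls follow in part from this.

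The second set, of 39 probesets, was the brightest and the most uniform. The means of its members spanned only 10.14 to 10.29. Its mean ran from 9.98 through a median of 10.18 to 10.48 in B6, and from 10.09 through 10.27 to 10.44 in D2, so the D2 mice lay inside the B6 range. The strains differed by 0.092, with single members between 0.048 and 0.15, and none was called.

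The third set, of 12 probesets, was much higher in D2. Its mean was 6.35, 7.01 and 7.22 in B6 (lowest, median and highest mouse) and 7.48, 8.19 and 8.87 in D2. No D2 mouse reached down to the B6 range, and D2 replicates 14, 22 and 15 lay nearest to it. The means were 6.91 ± 0.30 (SD, n = 10) and 8.15 ± 0.47 (SD, n = 12), a difference of 1.25 or 2.37-fold. All 12 members differed by 1.19 to 1.32.

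A set of 6 probesets was higher in D2 by a like amount from a brighter start. Its mean was 7.57, 8.12 and 8.56 in B6 and 8.84, 9.42 and 9.90 in D2, again without overlap. The means were 8.07 ± 0.32 (SD, n = 10) and 9.39 ± 0.31 (SD, n = 12), a difference of 1.31 or 2.48-fold, with members between 1.24 and 1.38. The order of the D2 mice was shared only in part. D2 replicate 24 was highest in the set of 12, with replicate 21 next at 8.72, and replicate 21 was highest in the set of 6. D2 replicate 14 was the lowest D2 mouse in both sets, at 7.48 and 8.84.

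The other set of 6 went the opposite way. Its mean was 7.66, 8.07 and 8.17 in B6 and 6.95, 7.70 and 7.86 in D2, and the strains overlapped. The means were 7.99 ± 0.19 (SD, n = 10) and 7.63 ± 0.25 (SD, n = 12), so B6 was 1.28-fold higher. Members differed by -0.45 to -0.21, and 2 of the 6 were called lower in D2 by level and by index. D2 replicate 13, at 6.95, lay well below the other D2 mice, and without it the difference was -0.30 in place of -0.36.

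**Figure D2:**
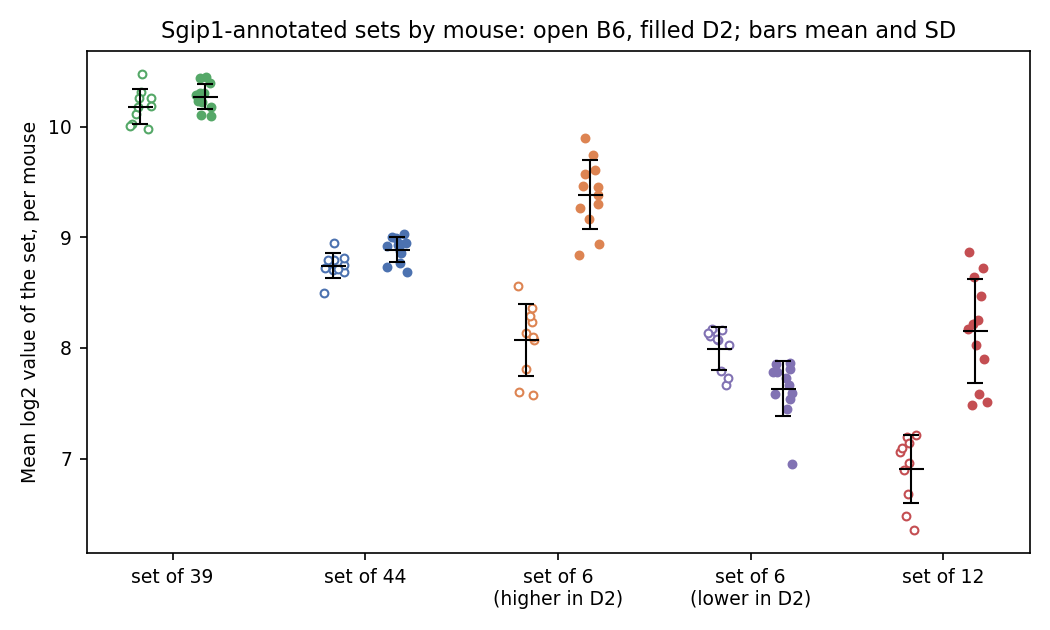
Mean log2 value of the 5 largest sets of Sgip1-annotated probesets in each mouse, open circles for B6 (n = 10) and filled circles for D2 (n = 12), with bars for the mean and SD. The set of 12 and the set of 6 higher in D2 do not overlap between the strains, and the other 3 sets do.

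Single probesets at the ends of the index scale were picked for their strain difference. A wide gap between the strains follows in part from that choice. Probeset 4666199 and the others named with it here belong to the sets higher in D2 described above. They repeat values of those sets and are no separate evidence. Probeset 4666199 was the highest, at 7.13, 7.98 and 8.51 in B6 and 8.75, 9.31 and 9.83 in D2, and its index differed by 1.19 with a standard error of 0.16. No mouse of one strain lay in the range of the other. Probesets 4673747, 5305388 and 5556350 of the same set had index differences of 1.14, 1.14 and 1.12. Probeset 5112388 of the set of 12 had 1.13.

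Probeset 4968666 belonged to none of the sets and separated the strains with the least scatter of the 6 highest. It read 5.83, 6.22 and 6.40 in B6 and 7.14, 7.44 and 7.98 in D2, means of 6.13 ± 0.20 (SD, n = 10) and 7.45 ± 0.23 (SD, n = 12). Its level differed by 1.31 and its index by 1.12. Probeset 4371095, named after its values were seen, also stood alone and was 1.31 higher in D2, at means of 5.54 and 6.85.

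At the low end the scatter in D2 was wider. Probeset 4426460 read 7.38, 7.72 and 8.01 in B6 and 6.25, 7.17 and 7.79 in D2, an index difference of -0.78. Probesets 5298078 and 4597523 both had -0.71, with an SD of 0.10 and 0.078 in B6 (n = 10) and of 0.33 and 0.35 in D2 (n = 12). In these 3 called probesets the strains overlapped at the top of the D2 range. Probesets 4563176 (-0.80), 4309279 (-0.71) and 5059037 (-0.70) had differences as large but were not called.

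Few probesets lay beside the index threshold on the high side. Just inside it lay 4472857 at 0.62, whose level was 9.06, 9.37 and 9.75 in B6 and 9.81, 10.20 and 10.55 in D2, and 4999436 at 0.86. Just outside lay 5456570 at 0.49 and 4409463 at 0.41. On the low side 4529088 and 4678828, both at -0.51, were inside, and 4789424 at -0.49 and 4914754 at -0.48 were outside, and none of these 4 was called. The steps between neighbours were larger on the high side than on the low side.

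The sets were formed on values of these same arrays, so their members were picked in part for varying alike among mice. After each strain's mean was subtracted, members of a set were compared across the 22 arrays with Pearson's r, as a description. All probesets of an array share its RNA and its normalisation. Members of the set of 12 ran together closely, with a median r of 0.93 (lowest 0.85, highest 0.97). The set of 39 had a median of 0.88 (0.49 to 0.98) and the set of 6 higher in D2 a median of 0.83 (0.67 to 0.97). The set of 6 lower in D2 had a median of 0.59 and the set of 44 only 0.51, with some pairs as low as -0.50.

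The means of the sets of 44 and 39 correlated at 0.65. The set of 12 correlated at 0.41 with the set of 44, at 0.17 with the set of 39 and at 0.24 with the set of 6 that was also higher in D2. That set of 6 had 0.044 with the set of 44 and -0.48 with the set of 39. That r is higher within sets than between them follows in part from how they were formed. The median r of a member with Sgip1-annotated probesets outside its own set was 0.14 for the set of 12 and -0.098 for the set of 6.

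**Figure D3:**
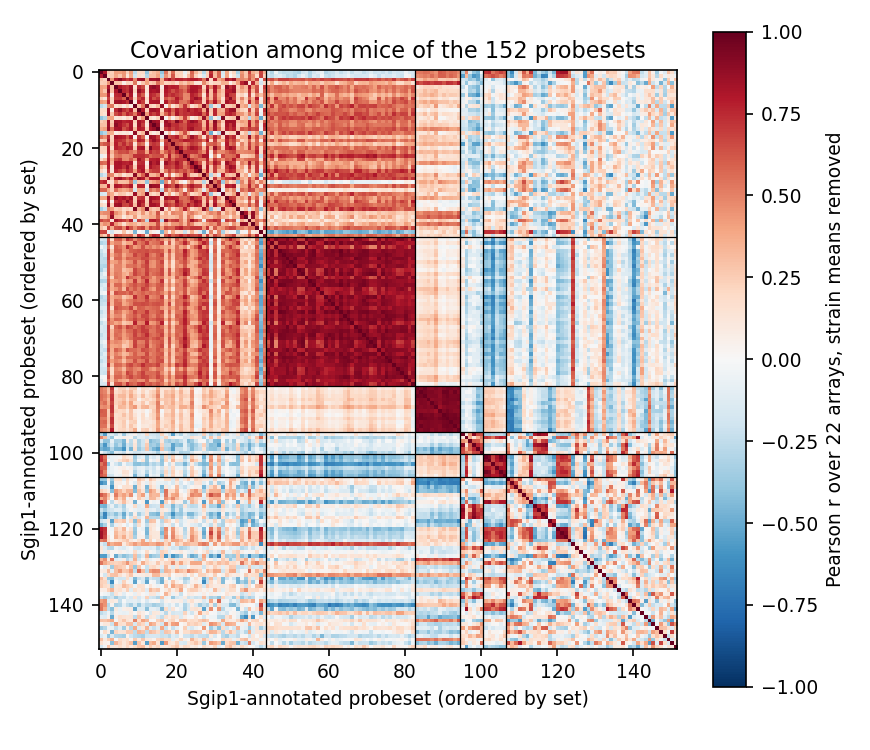
Pearson r between all pairs of the 152 probesets annotated as Sgip1 over 22 arrays with strain means removed, ordered by set, with lines between the 5 largest sets and the remaining 45 probesets. The set of 39 and the set of 12 form dark blocks with median r of 0.88 and 0.93, and the set of 12 is pale against the rest.

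Probesets without a single symbol followed some sets as closely as the members did. At r of 0.9 or more with the mean of the set of 12, 21 probesets of the whole array were found: the 12 members and 9 with no symbol or several, and none with another gene's symbol. For the set of 39 there were 48, of which 32 carried Sgip1, 16 had no single symbol and none carried another symbol. For the set of 6 higher in D2 there were 9, of which 5 carried Sgip1, 3 had no single symbol and 1 carried Strn3. The set of 44 had 3 and the set of 6 lower in D2 had 3, the latter including Bmpr2 and Vamp2. Members helped to make each mean, which raises their own r.

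Fewer probesets had values close to the sets higher in D2 than to the other sets. The distance was taken with the strain difference left in, so a close probeset must share most of that difference. Low counts for the sets higher in D2 follow in part from this, and nothing is read from them. Within a root-mean-square difference of 0.25 of the set of 12 lay 18 probesets of the array, 12 of them Sgip1 and the other 6 without a single symbol. Within that distance of the set of 6 higher in D2 lay 9, 6 of them Sgip1 and 3 without a single symbol. The sets of 44, 39 and 6 lower in D2 had 1406, 569 and 246 such neighbours. Of those near the set of 39, 229 carried another symbol and 14 of these carried Slc38a6.

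Sgip1 was compared with the other genes that have at least 30 kept probesets, 1566 genes in all, by the size of its sets. Its largest set, of 44, ranked 1, ahead of Syne1 with 36, Slc38a6 with 34 and Herc2 with 31, against a median of 5. Its count of probesets within a window of 0.2 in mean level, 42, also ranked 1, where the next gene had 32 and the median gene 6. By the share of its probesets in sets of 5 or more, 71.8%, it ranked 25, and the median was 16.7%. A gene with more probesets, or with a smaller spread among mice, can form larger sets at a fixed distance, and neither was adjusted for.

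A pair of further probesets carried both Sgip1 and Ccrn4l, the older symbol of the circadian deadenylase-family gene Noct, and were not counted among the 152. Probeset 5303905 was 7.80 ± 0.14 (SD, n = 10) in B6 and 8.08 ± 0.21 (SD, n = 12) in D2. Probeset 5605828 was 8.80 ± 0.19 (SD, n = 10) in B6 and 8.44 ± 0.15 (SD, n = 12) in D2. The one was higher and the other lower in D2. Ccrn4l alone had 94 probesets, and its largest set of 18 had a median r of 0.90.

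A contrast that the choice of gene did not use is the letter A or B in the array file names of the labels, whose meaning the labels do not give. Letter B arrays were 4 (B6 replicates 5 and 6, D2 replicates 13 and 22) and letter A arrays 18 (8 B6 and 10 D2). With strain in the limma model, 7 of the 149 probesets were called lower on letter B arrays, where 2.47% of all kept probesets were, and 0 were called higher, where 2.43% were. At an unadjusted p under 0.05 there were 13 in either direction. The 7 differed by -0.83 to -0.40, and the median over all 149 was -0.0079, against -0.0011 for all kept probesets. For the index, 5 were called lower (2.07% of all) and 0 higher (2.06%), with 20 at an unadjusted p under 0.05.

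Probeset 4912324, of the set lower in D2, had the smallest adjusted p in this contrast, 0.0068 (limma, Benjamini-Hochberg). Letter A arrays read 7.37, 7.94 and 8.28, and the letter B arrays 7.43 and 7.60 in B6 and 6.46 and 7.28 in D2. Within each strain both letter B arrays lay below every letter A array, whose lowest was 7.91 in B6 and 7.37 in D2. Both D2 arrays of letter B were below all 18 letter A arrays. The B6 arrays of letter B lay inside the letter A range only with the strains pooled. The set of 6 lower in D2 gave 3 of the 7 calls and the 2 sets higher in D2 gave none. Without D2 replicate 13, the calls were 0 by level (15 at an unadjusted p under 0.05, lowest adjusted p 0.0714) and 0 by index (19 and 0.0755), while 1.51% of all kept probesets were still called by level. Without B6 replicate 5 or 6 the level calls were 2 and 4.

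Genes of the pathways in which the protein acts were read from lists of endocytosis and cannabinoid genes, and 66 of 67 could be measured. In D2, 1 rose and 4 fell, where 2.56% and 8.29% of all genes did, and 61 were not called. At an unadjusted p under 0.05 there were 12. With the gene values of each array centred on their own median 3 rose and 2 fell. Fcho1, Arrb2 and Snap91 were then called higher, Fnbp1l and Synj2 lower, and Reps2 and Pip5k1b were no longer called. The median difference of the 66 was -0.058, and of all genes -0.053.

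Among the muniscins, Fcho1, which helps start clathrin-coated pits, rose from 5.86 ± 0.19 (SD, n = 10) to 6.30 ± 0.19 (SD, n = 12). Its difference was 0.43 with a standard error of 0.086 and an adjusted p of 0.00107 (limma, Benjamini-Hochberg). The strains overlapped between 5.92 and 6.10. Fcho2, the related pit initiator, differed by -0.060 and was not called. Fcho1 and Fcho2 together had 57 kept probesets, and 0 were called by index.

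Of the 8 measured genes of AP-2, Sgip1's direct contact in the coat, and its regulators 0 were called, with 1 at an unadjusted p under 0.05 and a lowest adjusted p of 0.0894. The largest differences were -0.21 in Ap2a2, an adaptor subunit, and -0.15 in Bmp2k, a kinase related to the adaptor kinase Aak1. Ap2a2 was called lower with the file letter as a block. Ap2m1, the medium subunit, had too few kept probesets for a gene value. Of the 20 clathrin coat and early scaffold genes only Reps2, an EH-domain protein, was called, at -0.26 (6.86 to 6.60, adjusted p 0.00836 by limma with Benjamini-Hochberg). Eps15 and Itsn1, scaffold partners of the muniscins, differed by -0.15 and -0.044.

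Of the 15 membrane-curving proteins 1 fell, Fnbp1l, which links curved membrane to actin, at -0.40 (6.49 to 6.09, adjusted p 0.00613 by limma with Benjamini-Hochberg). Sh3gl2, a brain endophilin, differed by -0.084. Sh3gl3, another endophilin gene of the list and named after its values were seen, differed by -0.14. Neither was called. Of the 11 fission and uncoating genes Synj2, a phosphoinositide phosphatase, fell by 0.36 and Pip5k1b, a phosphoinositide kinase, by 0.27. Of the 10 cannabinoid genes 0 were called, with 2 at an unadjusted p under 0.05 and a lowest adjusted p of 0.072 by limma with Benjamini-Hochberg. Cnr1, the CB1 receptor gene, differed by 0.026, and the largest differences were -0.31 in Grk3, a receptor kinase, and -0.27 in Napepld, an enzyme of endocannabinoid synthesis. Members of the cannabinoid list were called under other settings: Arrb2 with centring, Grk3 with the stricter filter and on letter A arrays alone, Arrb1 with the letter as a block and Cnrip1 with the mean over probesets. With each array's median as a covariate none of the 66 genes was called, and Fcho1 then had an adjusted p of 0.0604 (limma, Benjamini-Hochberg). The array median itself differed by strain, at a mean of 1.44 in B6 and 1.48 in D2. This setting therefore cannot fully separate it from strain, and nothing is read from the loss of calls.

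Of the 1587 kept probesets of these genes, 5 had an index called higher in D2 and 13 lower, or 1.13%, against 1.67% over all probesets indexed, and the difference between these shares was not tested.

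**Figure D4:**
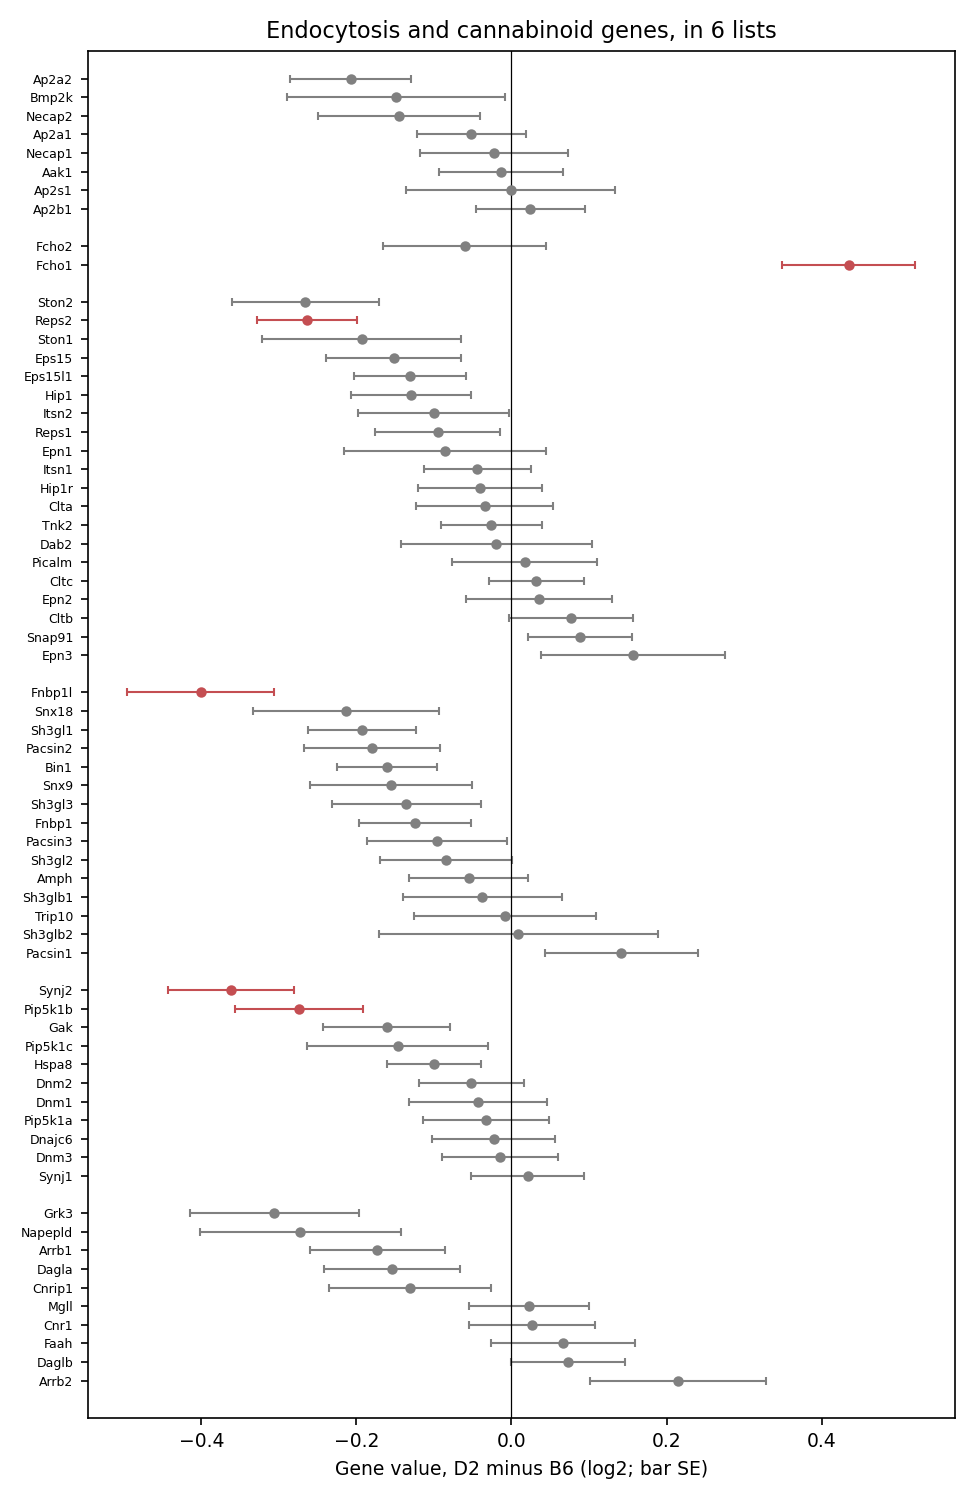
Difference in gene value, D2 minus B6 (log2, bars standard error), of the 66 measured endocytosis and cannabinoid genes in 6 lists, red where called at an adjusted p under 0.05. Fcho1 is higher in D2 and Reps2, Fnbp1l, Synj2 and Pip5k1b are lower.

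The genes around Sgip1 on its chromosome were also read, 6 measured genes on each side in the order of the gene table: E130102H24Rik, 0610043K17Rik, Dnajc6, Leprot, Lepr and Pde4b before it, and Tctex1d1, BB031773, Insl5, Wdr78, Mier1 and Slc35d1 after it. Of these 12, 0 were called by limma, where 10.9% of all genes were in either direction, so the count of 0 is near the background. At an unadjusted p under 0.05 there were 2, and the lowest adjusted p was 0.0934 (limma, Benjamini-Hochberg). Their differences ran from -0.46 to 0.11. Pde4b, the gene before Sgip1 and a cyclic AMP phosphodiesterase, differed by -0.13, and Tctex1d1, the gene after it, by -0.14.

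The genes whose values followed the Sgip1 gene value most closely over the 22 arrays, strain means removed, were Csmd1 (r = 0.73), Adamts17 and Kif23 (both 0.69), Cacna1e (0.66) and 1700086D15Rik (0.65). These were the 5 highest of 15950 genes. Csmd1, at 5.96 ± 0.095 (SD, n = 10) in B6 and 6.00 ± 0.13 (SD, n = 12) in D2, was close to equal between the strains.

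Markers of brain cells were read in the same way, and over all genes 8.29% were called lower in D2 and 2.56% higher. The mean over 9 of 10 pan-neuronal markers was 7.99 to 8.21 per array in B6 and 7.74 to 8.10 in D2, and 1 of the 9, Map2, was called lower (-0.38). Over 9 astrocyte markers it was 6.58 to 6.81 and 6.36 to 6.67, with 4 lower and 1, Gja1, higher (0.28, but -0.11 without the filter on dim probesets). Over 8 of 9 oligodendrocyte markers it was 7.58 to 7.92 and 7.12 to 7.79, with 3 lower. Over 3 of 5 red blood cell markers it was 5.21 to 5.78 and 3.24 to 4.67, with 2 lower, Hbb-b1 (-4.12) and Alas2 (-0.90). The other, Slc4a1, differed by 0.013 and was not called. Calls, all lower in D2, were 1 of 6 glutamatergic, 1 of 8 GABAergic, 1 of 9 microglial, 2 of 6 endothelial and 4 of 8 choroid plexus and ependymal markers. Single calls in lists of 6 to 9 genes are near the share over all genes. In whole tissue fewer cells of a type and less RNA per cell cannot be told apart. No probe sequences were used, so probes were not checked for sequence differences between the strains. The part of these marker differences in the Sgip1 values was not tested.

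Array medians, over all probesets with values, were 1.44 ± 0.018 (SD, n = 10) in B6 and 1.48 ± 0.018 (SD, n = 12) in D2. Of the 1732 genes called, 76.4% were lower in D2. That share was 42.2% with each array's gene values centred on their own median, and 46.2% with the array median as a covariate. The Sgip1 gene value differed by 0.29 with centring and 0.16 with the covariate. The index calls were 16 higher and 2 lower with the covariate, in place of 22 and 10. The array median followed strain in part, so the covariate can take up some of the strain difference. Centring an array cannot change the index, which is a difference within an array, so it is no check on these calls.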

How the data were processed

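Whole-brain RNA of 10 B6 and 12 D2 mice was measured on 22 exon arrays. Ribosomal RNA was reduced before labelling, and arrays read on a different scanner had been left out, per the labels. The authors deposited log2 values, which they computed by RMA under R 2.6.0 with the affy package, as the submitters' processing notes list. The probeset definition and genome build are not given in the sources used here. Of 1201338 rows, 10932 were empty. Groups came from the labels, and the number of arrays limits the precision.

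Probesets with a mean of at least 1.44 were kept (595203). Gene values were medians of at least 3 kept probesets with 1 symbol, and the splicing index was the probeset minus the gene value. Tests used limma 3.58.1 (lmFit, eBayes) in R 4.3.3 with Benjamini-Hochberg adjustment over all features, after a test on simulated data. The members, lists and sets were chosen with earlier results of these data known. Named were all called list genes and otherwise the 2 with the largest differences, Fcho1, Fcho2, Sh3gl2, Ap2m1, Eps15, Itsn1 and Cnr1 always, and for Sgip1 the 6 highest and 6 lowest index differences, those beside the threshold, and the 3 brightest and dimmest. Alternatives changed the filter, centring, gene summary, file letter and arrays used. Figures used matplotlib 3.10.9.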

Additional observations from a re-analysis of the deposited data

Results flagged for a closer look

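Of 78 values tested for a mouse far from the rest of its strain, 7 had one, all in B6. Chance gives about 1 in 20 groups. Each was picked out because its gap to the nearest mouse was large beside the whole range of the 10 mice. Sgip1-annotated probeset 4529088 read 3.84 in replicate 9, where the nearest mouse read 4.43 and the highest 4.78. Probeset 4914754 read 7.09 in replicate 5, below 7.48 in the nearest. Synj2 was 5.20 in replicate 6 (nearest 5.56) and Cnr1 5.69 in replicate 5 (nearest 6.02). Aldoc, an astrocyte marker, was 10.41 in replicate 9 (nearest 10.52). Alas2, a red blood cell marker, was 3.45 in replicate 6 (nearest 4.22). Tctex1d1, the gene after Sgip1, was 1.67 in replicate 3 (nearest 2.15).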

How the results depend on the processing

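The Sgip1 gene value differed by 0.16 to 0.29 under every alternative, and by 0.16 to 0.21 as each array was left out. Index calls for Sgip1, 32 in all, were 30 to 38 as each array was left out and 18 with the array median as a covariate. Letter calls by level, 7, were 4 without the filter, 0 without D2 replicates 13, 14 and 19, and 0 to 8 as single arrays were left out. Letter calls by index, 5, were 0 without those 3 replicates and 0 to 6 as single arrays were left out. Calls among the endocytosis and cannabinoid genes, 5, were 8 with a stricter filter (the 75th percentile), 0 with the covariate, 12 with the mean over probesets, and 4 to 7 as single arrays were left out. Calls next to Sgip1, 0, were 1 without the filter, 2 with the mean over probesets, and 0 to 1 as single arrays were left out. Index calls on list probesets, 18, were 14 to 22. Gja1 differed by -0.11 without the filter, against 0.28. The cause was not tested. Set differences were 0.12 to 0.17 (44 probesets), 0.070 to 0.13 (39), 1.18 to 1.31 (12), -0.40 to -0.30 (6 lower) and 1.26 to 1.37 (6 higher). Leaving out single arrays was chosen after seeing the data. No paired analysis was possible because the strains share no replicate numbers.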
